A study of Mus musculus with 6 samples.

Results

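The 6 granulosa cell libraries of the series were placed in 2 sets by the share of their reads that fell on the protein genes of the mitochondrial genome. Granulosa cells are the somatic cells that surround the oocyte in the follicle, make oestradiol and respond to the ovulatory hormone surge. For each library, FPKM (fragments scaled by gene length and library depth) was multiplied by gene length, and the sum over the 13 mitochondrially encoded protein genes was divided by the sum over all 54551 features in the table. The 3 libraries over 1% (wild type 3, knockout 1 and knockout 2) are called the high set, and the 3 libraries under 1% (wild type 1, wild type 2 and knockout 3) the low set. Every library came from granulosa cells of C57BL/6 mice at postnatal day 21, given 5 IU of PMSG, a hormone that makes follicles grow, and 5 IU of hCG, which acts like the luteinizing hormone surge. The labels give the times as 48 h for PMSG and 6 h for hCG. By label, the low set holds 2 wild type libraries and 1 Gm12840-/- library, and the high set 1 wild type library and 2 Gm12840-/- libraries. Knockout 1 to 3 here means a library labelled Gm12840-/-. How the Gm12840 allele was made, and whether a library is 1 mouse or a pool, is not stated in the labels, so replicate spread may in part be technical. The sets were made from a value measured in these same libraries. High against low is therefore given as a description, with the value of every library and no p-value. In every list of values below, the low set is given in the order wild type 1, wild type 2 and knockout 3, and the high set in the order wild type 3, knockout 1 and knockout 2.

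Gm12840, the targeted gene, is a long intergenic noncoding RNA gene (ENSMUSG00000086320, chr4:117700188-117700923, mm10). It stood at 1.83, 0.566 and 1.45 FPKM in the low set and 0.365, 0.426 and 0.611 in the high set, from at most 17 reads in a library. Its sets overlapped, and so did the labels: the libraries labelled wild type stood at 1.83, 0.566 and 0.365 FPKM, and those labelled knockout at 0.426, 0.611 and 1.45. Which part of the gene was deleted is not stated in the labels, and reads outside a deleted part check nothing.

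The mitochondrial genome is a small circle transcribed as long precursors from both strands, which are processed into messenger, ribosomal and transfer RNAs. Its messengers carry short poly(A) tails, encode core subunits of the respiratory chain and ATP synthase, and are translated inside the organelle. All other mitochondrial proteins, including most respiratory subunits and the whole protein part of the mitochondrial ribosome, come from nuclear genes and are imported. The share of mitochondrial reads in a library is widely used as a check on cells and RNA.

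Old copies of mitochondrial DNA also lie in the nuclear genome, and they bear on which mitochondrial genes can be read. Of 31-base words in mt-Co2, 100% were also found in nuclear transcripts, against 6.55% in mt-Cytb and 0% in mt-Nd1. The runs below are bases 301 to 360 of mt-Co2 (chrM:7313-7372, plus strand) and of mt-Cytb (chrM:14445-14504, plus strand). Each is followed by the best ungapped match in the nuclear transcript that shares most of its words, Gm28661 (chr1:24615206-24615265, minus strand) and Gm11410 (chr4:80004289-80004348, plus strand), from the GENCODE M21 transcripts on mm10. They are shown because mt-Co2 cannot be told from its copy by its letters while mt-Cytb can, and capitals mark the bases that differ within a pair.
mt-Co2: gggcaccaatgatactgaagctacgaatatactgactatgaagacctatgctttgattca
Gm28661: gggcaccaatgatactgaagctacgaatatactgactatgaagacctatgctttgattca
mt-Cytb: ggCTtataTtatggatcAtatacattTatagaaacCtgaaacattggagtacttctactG
Gm11410: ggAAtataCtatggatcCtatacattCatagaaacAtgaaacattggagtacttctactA
The first pair was identical at 60 of 60 bases, and the second at 53 with 7 different.

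The share of reads on the 13 protein genes was 0.198%, 0.286% and 0.125% in the low set and 2.05%, 1.47% and 4.13% in the high set. The exact (Clopper-Pearson) 95% binomial intervals were narrow, for example 0.123% to 0.127% for knockout 3 and 4.12% to 4.14% for knockout 2, and cover counting error only. The library nearest to the 1% line from below was wild type 2 and the nearest from above was knockout 1. These values chose the sets and are not a result.

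Among the complex I genes of the mitochondrial genome, mt-Nd1 stood at 129.5, 203 and 71.1 FPKM in the low set and 1789.8, 1277 and 3754 in the high set. Its log2(FPKM + 1) mean was 4.04 higher in the high set; the pseudocount of 1 understates differences of low genes. mt-Nd4 had the widest gap of the 13 genes, 23.2, 47.3 and 11.3 FPKM in the low set and 974, 559 and 1938 in the high set, a log2 difference of 5.39. The sets did not overlap for either gene. mt-Nd2 (3.76), mt-Nd5 (1.95), mt-Nd4l (2.73), mt-Nd3 (1.01) and mt-Nd6 (2.66), whose log2 differences are in parentheses, also had sets that did not overlap. The value of mt-Nd4l rests on 1 read in the low set and 167 in the high set. mt-Nd6 is encoded on the other strand from the rest, and the library kit does not mark strand.

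mt-Cytb, the cytochrome b of complex III, stood at 195, 312 and 115 FPKM in the low set and 2868, 2046 and 5809 in the high set, a log2 difference of 4.08. mt-Co1, the catalytic subunit of complex IV, was the most abundant of the 13 per length in every library at 814, 1289 and 456 FPKM in the low set and 6423, 4866 and 12115 in the high set. Both were apart with no overlap. The other complex IV genes did not follow: mt-Co2 stood at 87.1, 74.6 and 135 FPKM in the low set and 78.6, 116 and 62.5 in the high set, and mt-Co3 at 72.5, 84.2 and 59.1 FPKM in the low set and 60.02, 98.3 and 51.3 in the high set, with the sets overlapping for both. Of the 31-base words, 62.8% of mt-Nd4, 63.9% of mt-Co1, 98.1% of mt-Nd3 and 98.9% of mt-Nd4l occur in nuclear transcripts. For mt-Co2, mt-Co3 and mt-Atp6 the share was more than 99%. mt-Atp6 of ATP synthase was nevertheless apart, at 13.2, 15.6 and 4.96 FPKM in the low set and 58.9, 46.3 and 36.5 in the high set. mt-Atp8, a second ATP synthase gene that overlaps it, was listed at 0 in the low set and at 8.98, 2.36 and 1.07 in the high set, from 53 reads in all. For 11 of the 13 protein genes the sets did not overlap and the log2 difference of their means was at least 1. The summed reads of the 13 genes made the sets, so this count is a description only.

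**Figure D1:**
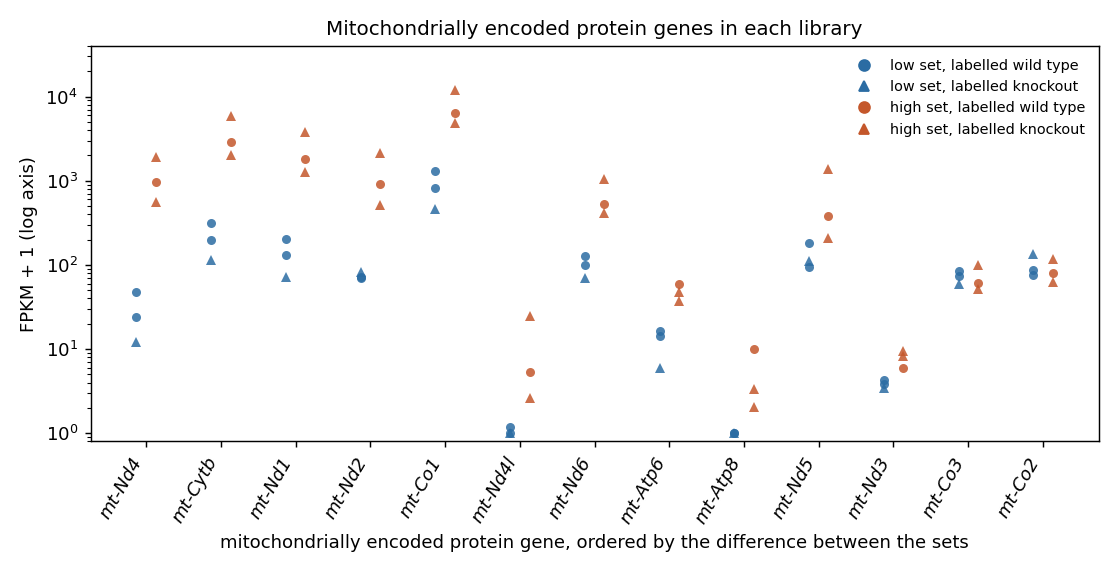
FPKM + 1 on a log axis for the 13 mitochondrially encoded protein genes, 1 point per library, blue for the low set, orange for the high set, circles for wild type and triangles for knockout labels. The sets are apart for 11 genes and overlap for mt-Co2 and mt-Co3.

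The ribosomal RNAs of the mitochondrion differed little: mt-Rnr1 stood at 128, 118 and 106 FPKM in the low set and 122, 192 and 242 in the high set and mt-Rnr2 at 113, 91.5 and 76.6 FPKM in the low set and 82.5, 133 and 172 in the high set, with overlapping sets. Of 22 mitochondrial transfer RNA genes, 5 had no read in any library, and 10 passed 1 FPKM in at least 3 libraries, of which 6 had sets that did not overlap. Among these, mt-Tw and mt-Te passed through the high set alone, so they had to differ. For comparison, 8275 of the 12470 nuclear genes described below did not overlap. The 7 nuclear genes that were at least 90% made of mitochondrial words lie side by side on chromosome 1. Of these, 3 were apart and higher in the high set. Gm28439 passed the filter through the high set alone, so it had to be higher. Gm28439, at 0.154, 0.405 and 0.148 FPKM in the low set and 6.64, 2.56 and 15.9 in the high set, Gm10925, at 11.2, 15.01 and 2.97 FPKM in the low set and 45.3, 39.98 and 45.99 in the high set, and Gm10222, at 2.75, 0.201 and 1.77 FPKM in the low set and 8.26, 5.64 and 12.7 in the high set, are the 3. Gm28661, the copy of mt-Co2 shown above, overlapped between the sets at 138, 98.95 and 103 FPKM in the low set and 70.04, 129 and 65.9 in the high set. Reads of these copies and of the mitochondrial genes cannot be told apart where the letters are the same. Mitochondrial reads made the sets, so the levels of these copies are a description only.

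Recovered depth was 16609477, 17997837 and 17020427 reads in the low set and 19465847, 16722828 and 16392098 in the high set, so depth overlapped. The totals behind the authors' FPKM were 0.894, 0.939 and 0.904 times this depth in the low set. In the high set they were 1.12, 1.12 and 1.12 times it, so the authors' scaling went with the sets. The high libraries detected more features with at least 1 read (23326 to 24267 against 21750 to 22000), and more genes were needed to hold 50% of the reads (834 to 893 against 527 to 609). Cytosolic ribosomal protein genes took 9.85% to 13.5% of reads in the low set and 3.70% to 6.28% in the high set. Haemoglobin genes took 0.203% to 0.308% and 0.0403% to 0.0649%. The median gene length behind a read was 3162 to 3297 bases in the low set and 3837 to 4483 in the high set. The part these library properties play in the gene differences below was not tested.

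Outside the mitochondrial genome, 12470 nuclear genes exceeded 1 FPKM in 3 or more libraries and were described, 10670 of them protein coding. A gene is called apart here where the sets did not overlap and the mean log2(FPKM + 1) differed by at least 1, that is 2-fold. By this rule 2564 genes (20.6%) were apart, 886 higher in the high set (7.11%) and 1678 lower (13.5%). With no fold minimum, 3908 genes (31.3%) were higher in all 3 high libraries than in any low library and 4367 (35%) were lower, while 4195 (33.6%) overlapped. Of the 886 higher genes, 130 passed the filter through the high set alone, and of the 1678 lower genes, 70 passed through the low set alone, so those had to differ. Just inside the 2-fold line, 493 genes that did not overlap had a log2 difference of 1 to 1.1, and just outside it 627 had 0.9 to 1. The median difference over all described genes was -0.04. When each library was rescaled to the same sum over nuclear genes, that median moved to 0.23 and 65.2% of 2709 genes apart were higher, in place of 34.6% of 2564. Direction below is therefore on the authors' scaling. With equal sums, list medians near 0 turned positive, such as mitochondrial genome expression (0.17), mitochondrial dynamics (0.19), the citric acid cycle (0.26) and DNA replication (0.22), while cytosolic ribosomal proteins (-1.18) and complex I (-0.94) stayed negative.

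The same genes were looked at within each label. Among the 886 higher genes, the median log2 difference was 1.11 between wild type 3 and the other wild type libraries, and 1.40 between knockouts 1 and 2 and knockout 3. Both differences reached 2-fold for 554 of them. Among the 1678 lower genes the medians were -1.25 and -1.52, and 1258 reached 2-fold within both labels. These genes were chosen on the same libraries, so the signs are a description. The 6 libraries stood in the exact order of their mitochondrial share for 741 genes that increased along it (5.94%) and 1062 that decreased (8.52%).

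Nuclear genes of the respiratory chain and ATP synthase stood lower in the high set. The summed reads of the mitochondrially encoded subunits made the sets, so their higher level there as a group was fixed by the rule. Of 82 nuclear subunit genes in the 5 complexes, 77 were described; 47 were apart and lower, none was apart and higher, and the median log2 difference was -1.19. For complex I, which passes electrons from NADH to ubiquinone, 25 of 36 genes were apart and lower, with a median of -1.27. Ndufa2, an accessory subunit, stood at 839, 579.6 and 1006 FPKM in the low set and 133, 198 and 62.4 in the high set. Ndufs6, needed for assembly of the NADH-oxidizing part, stood at 199, 124 and 220.4 FPKM in the low set and 37.6, 51.4 and 15.5 in the high set. Every low library was above every high library for both genes, and knockout 2, with the highest mitochondrial share, was lowest. Ndufb7 (-2.18) and Ndufa13 (-1.96) had the next log2 differences.

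Complex II, which is also the succinate dehydrogenase of the citric acid cycle and has no mitochondrially encoded subunit, had none of 4 genes apart and a median of -0.13. Its iron-sulphur subunit Sdhb stood at 81.9, 80.5 and 78.2 FPKM in the low set and 44.5, 47.7 and 32.9 in the high set, which did not overlap but missed 2-fold. For complex III, 5 of 9 genes were apart and lower (median -1.02). The small subunit Uqcrq stood at 351, 255 and 376 FPKM in the low set and 71.8, 95.3 and 39.4 in the high set, and Uqcr11, Uqcrh and Uqcr10 had log2 differences of -2.06, -1.83 and -1.72. For complex IV, 8 of 12 genes were apart and lower (median -1.24). Cox7a2l, which takes part in joining complexes III and IV, stood at 375, 261 and 351 FPKM in the low set and 92.4, 125 and 63.6 in the high set. Cox7a2, Cox6b1 and Cox6b2 had log2 differences of -1.76, -1.35 and -1.33.

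ATP synthase makes ATP from the proton gradient, and 9 of its 16 nuclear genes were apart and lower (median -1.13). Atp5e, the epsilon subunit of the catalytic part, had the largest gap of the nuclear respiratory genes, 459, 293 and 582 FPKM in the low set and 57.6, 89.4 and 32.3 in the high set, a log2 difference of -2.93. Atp5d, the delta subunit beside it, stood at 426, 345 and 479 FPKM in the low set and 118, 163 and 93.8 in the high set. Atp5j2 and Atp5k had log2 differences of -1.79 and -1.75.

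**Figure D2:**
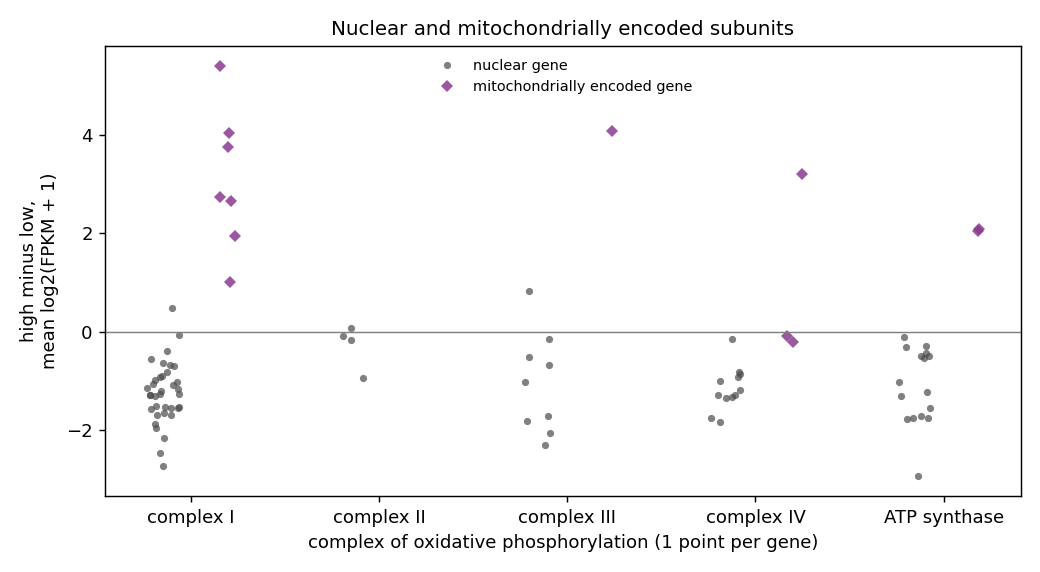
Difference of mean log2(FPKM + 1), high minus low set, for each nuclear gene (grey circles) and each mitochondrially encoded gene (purple diamonds) of the 5 complexes. Nuclear genes centre on a median of -1.19 over all complexes, and 11 of the 13 mitochondrially encoded genes lie at or above 1. The summed reads of the mitochondrially encoded genes made the sets.

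The genes that build and maintain mitochondria did not all stand on one side. Among mitochondrial ribosomal proteins, 45 of 80 were apart and lower, with a median of -1.10. Mrpl28 stood at 189, 141 and 201 FPKM in the low set and 39.9, 48.1 and 22.5 in the high set, and Mrpl52 at 242, 164 and 253 FPKM in the low set and 44.8, 58.5 and 34.4 in the high set. Mrpl11 and Chchd1 had log2 differences of -2.01 and -1.97. Among protein import genes, 8 of 32 were apart and lower (median -0.79). Timm13, a small chaperone of the space between the membranes, stood at 275, 212 and 354 FPKM in the low set and 64.03, 81.5 and 27.7 in the high set, and the inner membrane receptor Timm50 at 119, 85.2 and 124 FPKM in the low set and 38.5, 48.9 and 28.7 in the high set. Tomm7 (-1.43) and Gfer (-1.24) were also apart by their log2 differences.

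Genes that copy and transcribe the mitochondrial genome and process its RNA had a median of -0.08, near the -0.04 of all genes, with 1 higher and 2 lower of 27. The higher one was Pnpt1, the polynucleotide phosphorylase that degrades mitochondrial RNA, at 4.18, 5.59 and 3.84 FPKM in the low set and 10.8, 9.57 and 16.4 in the high set. The lower ones were Hsd17b10, a subunit of the RNase P that cuts out transfer RNAs, at 175, 113 and 158 FPKM in the low set and 52.8, 70.8 and 42.1 in the high set, and Twnk, the DNA helicase of the organelle, at 18.9, 15.8 and 19.03 FPKM in the low set and 8.09, 9.95 and 6.41 in the high set. Mterf4 missed the 2-fold line at -0.96. Regulators of mitochondrial biogenesis had 2 of 10 higher and none lower (median 0.33), beside 7.11% higher and 13.5% lower of all described genes. With gene length corrected, their median was 0.07. Sirt1, a deacetylase, stood at 2.75, 3.76 and 3.095 FPKM in the low set and 8.12, 9.22 and 13.7 in the high set, and Gabpa, the DNA-binding part of nuclear respiratory factor NRF-2, at 4.26, 4.83 and 3.94 FPKM in the low set and 8.99, 8.16 and 13.1 in the high set.

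Dynamics and mitophagy genes had 1 higher and 5 lower of 22 (median -0.09). Fis1, a fission factor, stood at 173, 158 and 223 FPKM in the low set and 52.5, 66.6 and 34.2 in the high set, and the mitophagy receptor Bcl2l13 at 2.79, 4.81 and 3.37 FPKM in the low set and 12.4, 8.61 and 14.5 in the high set. These stood on opposite sides. Phb, a scaffold of the inner membrane, was lower at -1.47 on the log2 scale. In the citric acid cycle list, 1 gene was apart in each direction of 29 (median -0.04). Pdk4, the kinase that shuts pyruvate out of the cycle, stood at 3.703, 5.61 and 4.03 FPKM in the low set and 13.1, 12.2 and 18.7 in the high set, and malate dehydrogenase Mdh2 at 173, 166 and 178 FPKM in the low set and 83.6, 89.4 and 63.3 in the high set.

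Cytosolic ribosomal protein genes, which encode the protein part of the cell's main ribosomes, stood lower in the high set nearly throughout: 67 of 81 were apart and lower, none was higher, and the median was -1.51. Rplp1 of the ribosomal stalk, one of the 5 most abundant coding genes per length, stood at 9010.3, 5420.4 and 8651 FPKM in the low set and 1715, 2554 and 1175 in the high set. Rps27a, which is made as a fusion with ubiquitin, stood at 1284, 775 and 691 FPKM in the low set and 103, 222 and 97.4 in the high set. Rps15 and Rpl41 stood at 5526, 3377 and 5917 FPKM in the low set and 914, 1414 and 629 in the high set, and at 5582, 3616 and 5622 FPKM in the low set and 932, 1409 and 731 in the high set. Knockout 1, the high library with the lowest mitochondrial share, was the highest of its set for all of these genes. Rpl21 had a log2 difference of -2.53. Ribosomal protein genes have many processed pseudogenes, and reads may have been split between them. Of 101 described pseudogenes annotated as ribosomal protein, 71 were apart and lower (median -1.33), against 181 lower and 34 higher of 634 other processed pseudogenes (median -0.48).

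Many ribosomal protein messengers begin with a C followed by a run of pyrimidines, the terminal oligopyrimidine tract that couples their translation to growth signals. A tract, searched on the gene's own strand as a C followed directly by at least 4 bases that are each C or T, and beginning within 5 bases of the RefSeq start, was found in 30 of 60 described ribosomal protein genes with a start in the RefSeq table (50%). It was found in 23.8% of 8602 described genes, in 24.6% of mitochondrial ribosomal protein genes and in 18.8% of chromatin modifiers. The windows below run from 10 bases before the start to 20 bases from it on, on GRCm38.p6, for 5 of the ribosomal protein genes with a RefSeq start and the largest gaps between the sets. Capitals mark the tract, and the set holds genes with and without one.
Rps15, chr10:80292421-80292450, plus strand: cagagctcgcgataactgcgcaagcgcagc
Rpl41, chr10:128549149-128549178, minus strand: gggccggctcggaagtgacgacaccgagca
Rplp2, chr7:141447641-141447670, plus strand: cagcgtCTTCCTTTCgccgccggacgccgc
Fau, chr19:6057937-6057966, plus strand: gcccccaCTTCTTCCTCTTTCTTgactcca
Rpsa, chr9:120127756-120127785, plus strand: ttatttaaggacgtcatttccggccgcccg
Their log2 differences were -2.36, -2.29, -2.27, -2.23 and -2.13 in that order. The genes were chosen for large gaps, so nothing about the tract can be read from these values. A missing tract says only that these letters were not in this window.

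Translation factors had 15 genes lower and 1 higher of 42 (median -0.66). The elongation factor subunits Eef1b2 and Eef1d stood at 726, 446 and 595 FPKM in the low set and 155, 226 and 133 in the high set, and at 154, 106 and 169 FPKM in the low set and 34.4, 45.9 and 23.6 in the high set. Eif6, which keeps free large ribosomal subunits apart from small ones, and Eif3k had log2 differences of -1.92 and -1.60. Of 31 proteasome genes, which encode the main protein-degrading machine of the cell, 15 were apart and lower (median -0.99). The ubiquitin receptor Psmd4 stood at 329.7, 301 and 383 FPKM in the low set and 96.1, 119 and 67.8 in the high set, and the core subunit Psmb4 at 531, 475 and 576 FPKM in the low set and 159.5, 218 and 101 in the high set. No overlap between sets was seen for either. In the glutathione and peroxide defence list 8 genes were lower and 2 higher of 30 (median -0.82). Sod1, the cytosolic superoxide dismutase, stood at 2529.9, 1997 and 2342 FPKM in the low set and 764, 863 and 516 in the high set, and the peroxiredoxins Prdx5 and Prdx2 had log2 differences of -1.75 and -1.51.

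Replication-dependent histone messengers end in a stem-loop in place of a poly(A) tail, and are poorly recovered by poly(A) selection. Of 67 such genes in the list, 29 were described, 6 of them through the low set alone. Of the described genes, 15 were apart and lower and none higher (median -1.10). The consensus of the histone stem-loop, 16 bases searched on the sense strand, was found in the annotated transcripts of 15 of the 29 described histone genes and in 4 of 12075 described genes outside the list. The sites below belong to the 4 genes with the largest gaps among the lower genes that hold it, a choice made after their values were seen, with the motif in capitals (mm10, GENCODE M21 transcripts).
Hist1h2bj, chr13:22043634-22043657, plus strand: caaaGGCTCTTTTCAGAGCCacgc
Hist2h2ac, chr3:96220414-96220437, minus strand: aaaaGGCTCTTTTTAGAGCCacca
Hist1h3c, chr13:23745043-23745066, minus strand: aaaaGGCTCTTTTAAGAGCCacct
Hist1h3a, chr13:23761886-23761909, minus strand: caaaGGCTCTTTTCAGAGCCacac
Hist1h2bj stood at 10.3, 11.9 and 7.72 FPKM in the low set and 3.66, 2.43 and 2.13 in the high set, and Hist1h3c at 7.91, 10.6 and 8.35 FPKM in the low set and 3.200, 2.72 and 2.43 in the high set. Hist2h2ac stood at 2.85, 3.19 and 1.87 FPKM in the low set and 0.705, 0.103 and 0.2104 in the high set, and Hist1h3a at 4.54, 5.21 and 4.38 FPKM in the low set and 1.89, 0.701 and 1.64 in the high set. Hist2h2ac passed the filter through the low set alone, so it had to be lower. The largest gaps of the list were in Hist1h3i, at 9.18, 5.47 and 3.79 FPKM in the low set and 2.12, 0.3903 and 0.532 in the high set, Hist1h4h (-1.72), Hist1h1b (-1.62) and Hist1h3h (-1.58). For Hist1h1b, which encodes a linker histone, wild type 1 at 6.26 FPKM and wild type 3 at 5.67 lay close together. Other cell cycle genes did not stand with the histones: DNA replication genes had 1 gene higher and 1 lower of 30 (median -0.10), and mitosis genes 3 higher and 1 lower of 25 (median 0.27). The lists differ in gene length, with a median of 614 bases for histones and 4347 for DNA replication genes. With length and GC content corrected, the medians were -0.17 for histones, -0.18 for DNA replication genes and 0.05 for mitosis genes.

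**Figure D3:**
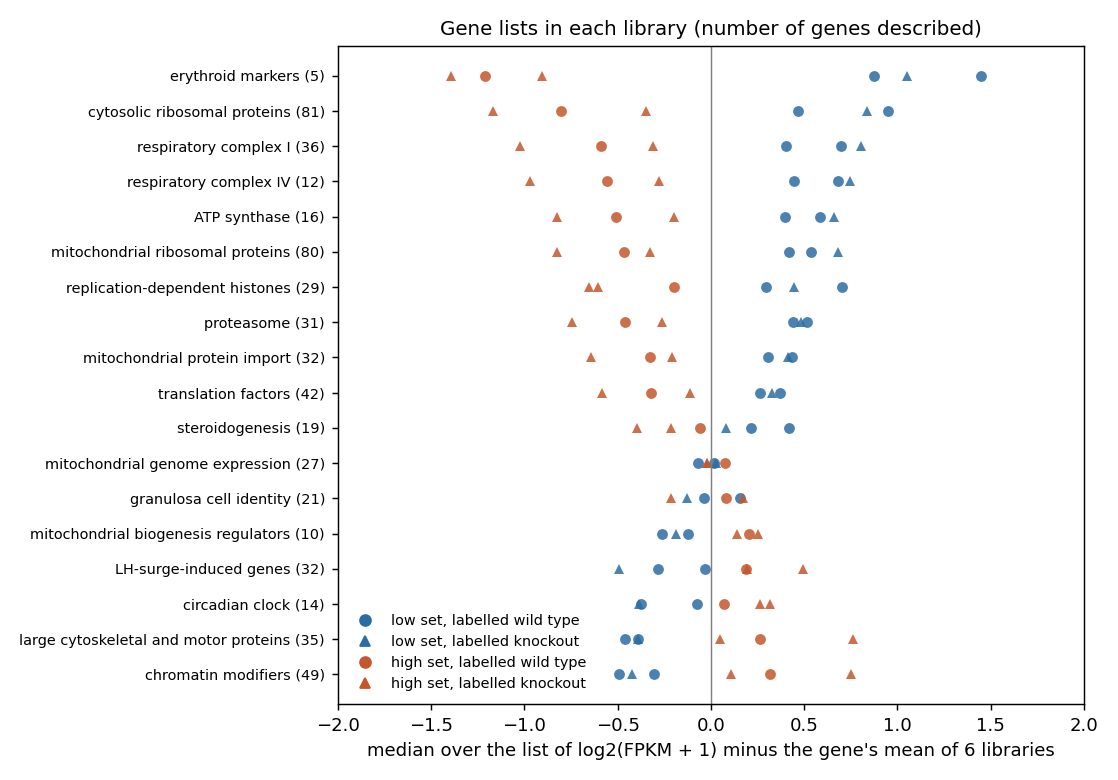
For 18 gene lists, the median over the list's genes of log2(FPKM + 1) minus each gene's mean over the 6 libraries, 1 point per library, with the number of genes described in brackets. Erythroid markers and cytosolic ribosomal proteins are lowest in the high set, with medians of -2.25 and -1.51 between the sets, and chromatin modifiers and large cytoskeletal genes stand on the other side.

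The 10 coding genes with the largest positive differences were not picked by function. Vcl, vinculin of cell adhesions, had the largest gap among coding genes with a mean FPKM of at least 5, at 0.6003, 1.900 and 0.999 FPKM in the low set and 23.1, 7.97 and 33.3 in the high set. Sox4, a transcription factor, stood at 5.42, 7.82 and 4.58 FPKM in the low set and 44.3, 21.2 and 47.9 in the high set. Gpam, the acyltransferase of the outer mitochondrial membrane that starts glycerolipid synthesis, stood at 3.27, 5.697 and 4.37 FPKM in the low set and 27.8, 12.9 and 35.7 in the high set. Wild type 3 and knockout 2 were the highest libraries for all 3, and knockout 1 was nearest to the low set. Lyve1, a hyaluronan receptor known from lymphatic endothelium, stood at 6.05, 9.47 and 10.1 FPKM in the low set and 46.3, 32.04 and 62.6 in the high set. Klf4, at 24.5, 45.8 and 22.5 FPKM in the low set and 99.6, 154 and 168 in the high set, and Fzd1, a WNT receptor, at 8.39, 18.8 and 9.16 FPKM in the low set and 69.9, 29.99 and 59.5 in the high set, also kept apart. Atxn2l (2.19), Ndst1 (2.13), Zcchc11 (2.10) and the arginine methyltransferase Carm1 (2.06) make up the 10 largest log2 differences.

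Of 49 chromatin modifier genes, 14 were apart and higher and none lower (median 0.90), and 2 of the 49 passed the filter through the high set alone. Kmt2e stood at 1.01, 1.52 and 1.24 FPKM in the low set and 4.497, 3.91 and 11.5 in the high set, and the acetyltransferase Ep300 at 1.302, 1.64 and 1.59 FPKM in the low set and 4.74, 3.55 and 10.3 in the high set. The demethylase genes Kdm6a and Kdm6b had log2 differences of 1.35 and 1.35. Knockout 2 was highest for each of these genes. Of 35 large cytoskeletal and motor genes, 10 were higher and none lower (median 0.83). Sptbn1, a spectrin, stood at 5.09, 4.95 and 3.93 FPKM in the low set and 14.5, 11.2 and 21.7 in the high set, and Syne1, which links the nucleus to the cytoskeleton, at 0.529, 0.6604 and 0.622 FPKM in the low set and 2.02, 1.46 and 5.79 in the high set. Syne1 was 1 of 2 genes of this list that passed the filter through the high set alone, so it had to be higher. SR proteins and hnRNPs, which act in splicing, had 4 of 35 higher and a median of 0.19, a share close to the 7.11% of all described genes. Ptbp1, a splicing repressor, stood at 20.9, 32.6 and 13.2 FPKM in the low set and 88.1, 73.4 and 109 in the high set, and Srsf4 at 0.851, 1.61 and 0.766 FPKM in the low set and 6.47, 3.77 and 6.64 in the high set. Clock genes had 3 of 14 higher (median 0.58). Of these, 2, Per2 and Rora, passed the filter through the high set alone, so they had to be higher. Clock, the partner of Bmal1, stood at 1.63, 1.87 and 1.57 FPKM in the low set and 4.55, 3.67 and 8.58 in the high set, and Per2 at 0.368, 0.505 and 0.211 FPKM in the low set and 1.08, 2.81 and 4.42 in the high set.

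At the other end, Rhox8, a homeobox gene of gonadal somatic cells, had the largest negative difference of the coding genes with a mean FPKM of at least 5, at 78.2, 30.4 and 28.9 FPKM in the low set and 3.81, 5.37 and 2.54 in the high set. Wdr89 stood at 122.64, 87.9 and 142 FPKM in the low set and 20.1, 30.8 and 7.27 in the high set, and Ccdc85b at 249.51, 231 and 366 FPKM in the low set and 51.7, 78.4 and 24.8 in the high set. Gm1673, a small coding gene, had a log2 difference of -2.55. All high libraries lay below all low libraries for these genes, with knockout 2 lowest. Both alpha-globin genes, described with the markers of other cells, and the respiratory and ribosomal genes named above complete the 10 lowest.

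Some abundant genes hardly differed on the authors' scaling. Cmtm3 stood at 58.3, 55.5 and 56.4 FPKM in the low set and 55.9, 54.97 and 55.7 in the high set. The chaperone Hsp90aa1 stood at 194, 204 and 207 FPKM in the low set and 207, 203 and 198 in the high set, and the initiation factor Eif4b at 84.3, 84.4 and 80.7 FPKM in the low set and 88.1, 80.2 and 85.8 in the high set. Hspa4 and the mitochondrial peroxiredoxin Prdx3 also overlapped, with log2 differences of -0.04 and -0.02. These 5 had the smallest range over the 6 libraries among coding genes with a mean FPKM of at least 50. In recovered reads, all 5 were higher in every high library than in any low library, while total depth overlapped. Cmtm3 had 2586, 2801 and 2594 reads in the low set and 3644, 3070 and 3042 in the high set. They are thus steady in FPKM only. The most abundant coding gene per length, Inha, the inhibin alpha subunit, stood at 10808, 10466 and 8032 FPKM in the low set and 5701, 5711 and 3973 in the high set, and Ephx2, an epoxide hydrolase, at 4658, 5019.5 and 4978 FPKM in the low set and 2949, 3000.1 and 2584 in the high set. Both were lower in every high library but missed 2-fold.

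**Figure D4:**
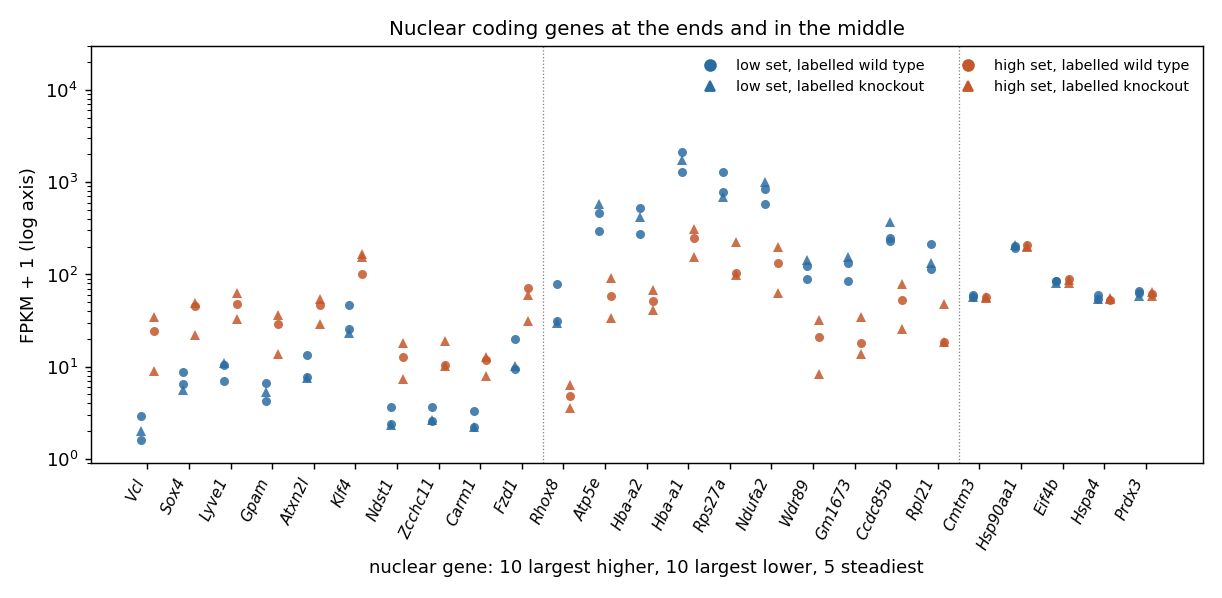
FPKM + 1 on a log axis for the 10 nuclear coding genes with the largest positive difference, the 10 with the largest negative difference and the 5 steadiest, 1 point per library, coloured by set and shaped by label. On the authors' scaling, points of the sets separate in the first 20 genes and coincide in the last 5, such as Cmtm3 near 56 FPKM.

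The higher and lower genes differed in length and base composition. The rule that made the sets multiplied by gene length to obtain reads, and the genes were chosen on the same libraries, so these are descriptions. Among coding genes with annotated parts, the median deposited length was 6139 bases for 754 higher genes, 1976 for 1260 lower genes and 4197 for all 10644. The median coding sequence was 2322, 669 and 1341 bases, and the median 3′ untranslated part 1568, 267 and 900 bases. The median GC content was 47.2%, 54.9% and 50.8%. The lower genes were also more abundant per length, with a median FPKM of 31.2 against 5.98 for the higher genes. Over 10 groups of described genes ordered by length, the median difference between the sets went from -0.70 in the shortest group (47 to 789 bases) to 0.58 in the longest (8892 to 41155 bases). In the shortest group 34.3% of genes were apart and lower and 6.89% higher, and in the longest 0.241% and 14.8%.

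Length and GC content both went with the difference when genes were put in 3 equal classes of each. Among the short genes, the median was -0.16 at low GC and -0.77 at high GC, and among the long genes it was 0.55 and 0.22. After a local regression on length within each library, 863 genes were apart and higher and 859 lower, with 1222 genes shared with the 2564. The ribosomal protein median was then -1.08, that of complex I -0.71 and that of complex IV -0.60, while complex II stood at 0.00. Chromatin modifiers went to 0.35, large cytoskeletal genes to 0.19, histones to -0.35 and glutathione genes to -0.16. The LH-induced list (0.58) and the erythroid markers (-1.50) kept medians far from 0. Gene length, GC content and the ribosomal protein and haemoglobin shares all went with the sets, and the part of each was not tested.

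**Figure D5:**
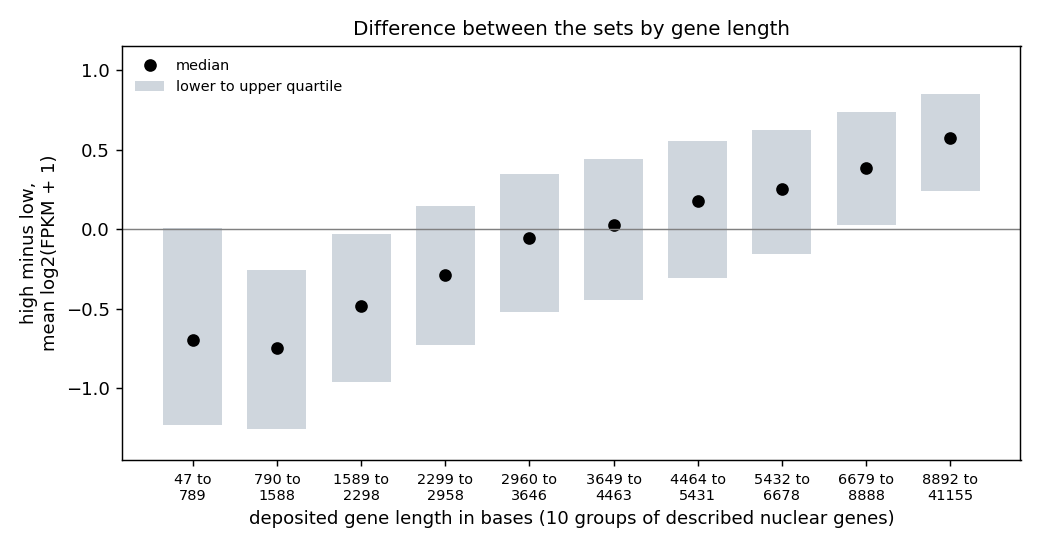
Difference of mean log2(FPKM + 1), high minus low set, over 10 equal groups of described nuclear genes ordered by deposited gene length in bases; points are medians and bars run from the lower to the upper quartile. The median goes from -0.70 in the shortest group to 0.58 in the longest.

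The lists that describe ovarian function gave mixed counts. Of 32 genes induced by the luteinizing hormone surge, 6 were apart and higher and none lower (median 0.49), while 15 overlapped. Adamts1, a protease of the expanding follicle matrix, stood at 33.8, 60.9 and 47.8 FPKM in the low set and 147, 138 and 209.8 in the high set, and Plat, a plasminogen activator, at 6.82, 7.48 and 4.61 FPKM in the low set and 15.8, 14.4 and 15.8 in the high set. The nuclear receptor genes Nr4a2 and Nr4a3 stood at 2.52, 1.94 and 1.76 FPKM in the low set and 3.24, 11.7 and 11.5 in the high set, and at 1.05, 1.31 and 0.738 FPKM in the low set and 1.44, 8.69 and 6.45 in the high set. In wild type 3 both lay near the low set, and their high values came from knockouts 1 and 2. Steroid synthesis genes had 2 of 19 lower and none higher (median -0.45), a share below the 13.5% of all described genes. Fdxr, which feeds electrons to the mitochondrial steroid hydroxylases, stood at 259.7, 295 and 327 FPKM in the low set and 137, 135 and 84.02 in the high set, and the outer membrane translocator protein gene Tspo at 78.1, 78.4 and 103 FPKM in the low set and 37.4, 52.3 and 27.9 in the high set. Cholesterol synthesis and uptake genes had 2 higher and 3 lower of 23, near the 7.11% and 13.5% of all described genes. The isomerase Idi1 stood at 3.09, 3.83 and 3.06 FPKM in the low set and 10.8, 9.47 and 14.8 in the high set, and the kinase Pmvk at 38.2, 35.2 and 52.7 FPKM in the low set and 12.5, 17.4 and 6.87 in the high set.

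Granulosa cell genes were found in all 6 libraries at levels that ranged widely between genes. Of the 22 in the list, 21 passed the filter. Of 21 described, 2 were apart and higher and 2 lower (median 0.08), near the 7.11% and 13.5% of all described genes. Gata4, a transcription factor of these cells, stood at 9.39, 16.5 and 7.01 FPKM in the low set and 40.9, 25.8 and 49.4 in the high set, and Kitl, their signal to the oocyte, at 2.598, 2.53 and 1.43 FPKM in the low set and 6.596, 7.05 and 16.1 in the high set. Amh, the anti-Müllerian hormone, stood at 764, 494 and 779 FPKM in the low set and 250.03, 347 and 181 in the high set, and its receptor Amhr2 at 177, 96.96 and 186 FPKM in the low set and 54.5, 84.3 and 57.97 in the high set. Summed over the 22 genes of the list, the level lay between 10274 and 13288 FPKM in the low set and between 5372 and 7202 in the high set. Inha alone, at 8032 to 10808 FPKM in the low set and 3973 to 5711 in the high set, made up most of that sum. Gene by gene, 11 differences were positive and 10 negative.

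Stress genes went both ways, as did all described genes (7.11% higher and 13.5% lower). The unfolded protein response, glycolysis and p53 counts below lay under these shares. Of 31 immediate early and heat shock genes, 7 were higher and 3 lower (median 0.32). Fosb stood at 121, 238 and 118 FPKM in the low set and 332, 392 and 569.6 in the high set, and Ier2 at 1772, 1781 and 2161 FPKM in the low set and 695, 616 and 493 in the high set. Hspe1, the co-chaperonin of the mitochondrial matrix, stood at 619, 372 and 503 FPKM in the low set and 158, 175 and 104 in the high set. In the unfolded protein response list 1 was higher and 3 lower of 24: the sensor Ern1 stood at 6.49, 9.04 and 6.13 FPKM in the low set and 21.6, 12.99 and 26.3 in the high set, and the factor Ddit3 at 31.9, 55.1 and 53.7 FPKM in the low set and 17.3, 21.1 and 11.8 in the high set. Glycolysis and hypoxia genes had 1 of 29 apart, Tpi1, at -1.02 on the log2 scale. Among p53 targets and apoptosis genes, 1 was higher and 2 lower of 23, with the pore-forming Bax at 201, 163 and 227 FPKM in the low set and 61.2, 79.6 and 36.3 in the high set.

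Markers of other cells of the ovary were present, and their part in the results was not tested. No marker gene of these lists was at 0 in all 6 libraries. In bulk RNA, fewer cells of a type and less RNA per cell cannot be told apart. Erythroid markers stood lowest of all lists, 4 of 5 described genes apart and lower (median -2.25), with a summed level between 2793 and 4456 FPKM in the low set and between 474 and 756 in the high set. The globin gene Hba-a1 stood at 2134, 1285 and 1744 FPKM in the low set and 249, 312 and 154 in the high set, Hba-a2 at 522, 277 and 423 FPKM in the low set and 50.9, 66.2 and 40.3 in the high set, and Hbb-bs at 1597, 1071 and 1214 FPKM in the low set and 252, 311 and 244 in the high set. Leukocyte markers had 2 of 13 lower, a share close to the 13.5% of all described genes. Their sum lay between 119 and 131 FPKM in the low set and between 60.7 and 109 in the high set. The complement gene C1qa stood at 19.5, 20.5 and 30.2 FPKM in the low set and 7.31, 15.4 and 5.26 in the high set.

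Over all described genes, 7.11% were apart and higher and 13.5% lower, and the endothelial, theca and oocyte counts below lay near these shares. Endothelial markers had 1 higher and 2 lower of 10, with a sum between 20.04 and 40.8 FPKM in the low set and between 26.5 and 31.3 in the high set. Cdh5, the cadherin of endothelial junctions, stood at 1.51, 1.703 and 1.67 FPKM in the low set and 7.22, 6.297 and 9.06 in the high set, but Cldn5, of the same junctions, at 10.3, 4.98 and 11.5 FPKM in the low set and 3.43, 4.73 and 1.74 in the high set. Members of the list thus stood on both sides. Theca markers had 1 of 9 lower, with a sum between 99.01 and 183 FPKM in the low set and between 96.9 and 141 in the high set, and no stromal, pericyte or smooth muscle marker of 13 was apart. The summed level of the stromal list lay between 419 and 521 FPKM in the low set and between 266 and 366 in the high set, while its median log2 difference was 0.38 and 8 of its 13 described genes were positive. Oocyte markers had 1 higher and 2 lower of 17, with a sum between 622 and 733 FPKM in the low set and between 381 and 477 in the high set. The growth factor Bmp15 stood at 3.81, 6.28 and 2.97 FPKM in the low set and 15.9, 10.7 and 24.4 in the high set, while its partner Gdf9 stood at 138, 122 and 140.0 FPKM in the low set and 67.8, 81.01 and 53.8 in the high set. Surface epithelium markers had 4 of 9 lower, with a sum between 156 and 284 FPKM in the low set and between 75.6 and 119.9 in the high set, and the keratin Krt19 stood at 58.2, 29.5 and 54.1 FPKM in the low set and 16.7, 16.4 and 8.55 in the high set.

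Noncoding genes stood on both sides, but most of the larger classes had negative medians. These were -0.32 for microRNA genes, -0.29 for antisense genes and -0.33 for processed transcripts. Of 71 described small nucleolar RNA genes, 17 were higher and 15 lower (median 0.20), and 10 had passed the filter through the high set alone. That median turned to -0.63 over those with a mean FPKM of at least 5, to -0.06 within the libraries labelled wild type and to -0.09 without knockout 3. Of 176 intergenic noncoding genes, 9 were higher and 19 lower (median -0.27), below the 7.11% and 13.5% of all described genes. Malat1, a nuclear-retained RNA, stood at 30.98, 38.8 and 33.2 FPKM in the low set and 97.6, 70.8 and 183 in the high set, and Snhg8, a host gene of small nucleolar RNAs, at 64.99, 48.8 and 51.7 FPKM in the low set and 24.98, 32.3 and 22.3 in the high set. Gm26917 stood at 255, 268 and 534 FPKM in the low set and 82.2, 45.8 and 36.2 in the high set, and Gm26809 at 2.35, 4.17 and 1.72 FPKM in the low set and 23.4, 18.3 and 29.2 in the high set.

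Gm12840 did not separate the labels, as given above, so what follows compares libraries labelled knockout and wild type. Because each label has libraries in both sets, the genotype label could be tested with the set as a term (limma on log2(FPKM + 1), two-sided, Benjamini-Hochberg over 12470 genes). At an adjusted p of 0.05, 1 gene (0.00802%) was called, and 301 had an unadjusted p under 0.05 (2.41%). limma-voom on recovered reads called 0 genes, with 251 under an unadjusted p of 0.05. The fit without the set called 0, with 91 under an unadjusted 0.05. The median half-width of the 95% interval of the genotype difference was 0.46 on the log2 scale with the set as a term and 0.73 without it. Of the gene lists above, none held a called gene. The median knockout minus wild type difference was 0.08 both for complex I and for cytosolic ribosomal proteins, against -0.01 over all genes.

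The called gene was Mir1291 (chr15:98519762-98519878, minus strand, 117 bases), a microRNA gene inside Kansl2 that shares 92 of its bases with the small nucleolar RNA gene Snora34. It had 0 reads in all 3 libraries labelled wild type and 7, 8 and 7 in knockouts 1, 2 and 3 (limma adjusted p = 0.00965). It exceeded 1 FPKM in the 3 knockout libraries alone and so passed the filter only through the label in which it is high. Against a floor of 3 reads over the wild type libraries, it stood at least 7.501-fold higher. RefSeq gives its mature RNA, shown because this is the one gene called, at chr15:98519828-98519853 (GRCm38.p6, minus strand), with the seed (bases 2 to 8) in capitals.
mmu-miR-1291: aUGGCUCUuacugaagacuagcaguu
A standard RNA library does not capture mature microRNAs, and reads here may be those of the overlapping genes, so the level is uncertain. Snora34 itself had 3, 1 and 2 reads in wild type 1, 2 and 3 and 13, 17 and 1 in knockouts 1, 2 and 3. The gene was called in 5 of 13 alternative fits, with limma adjusted p from 6.36e-05 to 1.00, and leaving out wild type 1, wild type 3, knockout 2 or knockout 3 in turn ended the call.

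Whether the gap between the sets differed by label was tested as an interaction of label and set. Wild type 3 is the only high library of its label and knockout 3 the only low one, so the test assumes that these vary like the others. It called 0 of 12470 genes (0%) by limma, with 171 under an unadjusted p of 0.05, and limma-voom also called 0, with 113. The median half-width of the interval of the interaction was 1.03 on the log2 scale. It is a per-gene value before adjustment, so it does not give the limit of detection over 12470 genes. Interaction differences well past it were not called, such as -4.21 for Hspa1b and 2.13 for Nr4a3. The test therefore cannot exclude 2-fold differences. Leaving out wild type 1 gave 22 called genes and leaving out wild type 2 gave 26, with 1 residual degree of freedom. The heat shock genes Hspa1a and Hspa1b, chosen after their values were seen, had the opposite order in the labels. Hspa1b stood at 54.4 and 99.7 FPKM in wild type 1 and 2 and 282 in wild type 3, but at 143 in knockout 3 and 31.9 and 25.4 in knockouts 1 and 2 (limma adjusted p = 0.617). Hspa1a followed it, at 36.5 and 71.6, then 199, against 83.9, then 22.6 and 15.9 FPKM. These neighbouring genes are near-identical in sequence, so their split is uncertain.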

How the data were processed

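RNA of 6 granulosa cell libraries was sequenced from 1 µg of total RNA with a TruSeq kit that does not mark strand, per the labels' protocols. The authors deposited FPKM per gene. The submitters' processing notes name the aligner HISAT2 (2.0.5) and the build mm10; the counter, annotation and scaling were not given in the sources used here. Multiplied by gene length, 100% of the FPKM values were whole multiples of what 1 read is worth (within 0.01), so reads were recovered (16392098 to 19465847 per library). The totals behind the authors' FPKM were 0.894 to 0.939 times these reads in the low set and 1.12 times in the high set.

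Sets, gene lists and members were chosen with earlier results of these data known. Genes named are Gm12840, the mitochondrial protein genes, the 10 largest differences each way among nuclear coding genes apart by 2-fold (mean FPKM of at least 5), up to 4 per list that did not overlap, the 5 most abundant, the 5 steadiest and genes called by a test. Others were named for a printed sequence or after their values were seen. Differences are of mean log2(FPKM + 1), computed from the deposited FPKM. limma 3.58.1 (R 4.3.3) tested the label with the set as a term and their interaction, and the fits were tested on simulated data. There the label fit called 75 of 100 genes changed 2-fold by label and 97 of 100 changed 4-fold. It also called 32 of 12270 genes that the label did not change. The simulation gave every gene the same assumed variability between libraries, so it does not show how the fits behave on the real spread. GENCODE M21 gave transcripts and the lengths of coding and untranslated parts. No libraries of a label were duplicates: chi-square per degree of freedom over genes with at least 20 reads was 36.7 to 392. Other scalings, filters, pseudocounts, corrections for length and libraries left out were tried.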

Additional observations from a re-analysis of the deposited data

Results flagged for a closer look

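The list of genes that copy, transcribe and process the mitochondrial genome had medians of opposite sign within the labels. Its median level was 0.104 higher on the log2 scale in wild type 3 than in wild type 1 and 2, and -0.0489 in knockouts 1 and 2 against knockout 3. Every library of each label followed these directions, which is why the list is given here. These values come from each library's median over the list. The median of the gene differences, used for the lists in the report, was 0.01 within wild type and -0.07 within knockout. The difference between the labels was not tested, and both values are small.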

How the results depend on the processing

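No list median of at least 0.5 in size (19 of 41 lists) changed sign under another pseudocount, filter or scaling, within either label or without any library. After correction for gene length, oocyte markers stood at 0.0835 and processed pseudogenes at 0.110. With GC content corrected as well, an alternative added after the data were seen, these stood at 0.0487 and 0.114, leukocyte markers at 0.122 and Insl3 at 0.00100; the cause was not tested. That correction left 1468 genes apart (794 higher and 674 lower), 12 lists past 0.5 and 86 named genes apart. With no fold minimum, 8275 genes did not overlap. A pseudocount of 0.1 gave 3741 genes apart, a mean FPKM of at least 5 gave 1880, and leaving out each library gave 1820 to 3300.

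With the set as a term, the label called 0 genes with a pseudocount of 0.1, a mean FPKM of at least 5, no filter, limma-voom or no set term, and 0 to 2 without 1 library. The interaction called 433 genes with no filter and 0 to 26 without 1 library; without wild type 3 or knockout 3 it could not be fitted. The fit with a replicate block called 27 genes. Same-numbered deviations correlated at -0.42, -0.67 and -0.89. Libraries that share a number always lay in opposite sets, so these correlations cannot tell whether the numbers pair the libraries. The labels do not say that a number marks a shared animal or day.

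The mitochondrial share as part of summed FPKM was 0.339%, 0.504% and 0.218% in the low set and 4.62%, 3.11% and 9.69% in the high set. With all mt- genes it was 0.227%, 0.311% and 0.146%, and 2.08%, 1.52% and 4.19%. Over coding genes alone it was 0.204%, 0.294% and 0.129%, and 2.10%, 1.51% and 4.23%. All 6 libraries kept their side of 1%. Genes with few reads, such as Mir1291, are limited by depth.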
